A study of Mus musculus with 10 samples.

Results

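The 9 genes of this report encode enzymes that make or break down small transmitters: Th, Ddc, Dbh, Tph1, Hdc and Chat on the synthesis side and Ache, Maoa and Maob on the breakdown side. They were followed in adult retina and newborn cortex on a 1-colour microarray. Genes were matched by symbol, through probes to which the platform annotation gave a single symbol. Of the 9 genes, 8 had such a probe, with 1 probe each, among 13840 genes so named and 33012 probes in all. Ache, which encodes acetylcholinesterase, was not matched to a probe under this rule and was not analysed here.

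The study compared microarray platforms on a pair of pooled mouse RNAs. Retina RNA came from a pool of 350 adult C57/B6 mice and was run on 5 arrays. Cortex RNA came from a pool of 19 mice at postnatal day 1 and was also run on 5 arrays. Their strain is C57/B6 in the descriptions of the samples but Swiss-Webster in the text of the series. No treatment or genetic change is named for either group, and the letters P1 in the retina titles are not explained. Each tissue was thus 1 pool measured repeatedly, so the errors and p-values below cover the spread between arrays and not between animals. Tissue cannot be told apart from age, and may not be separable from strain.

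The retina arrays had median intensities, as deposited, of 836 to 987, and the cortex arrays of 1255 to 1341. The arrays were therefore quantile-normalized on the log2 scale. All 5 measured photoreceptor genes, such as Pdc and Gnat1, were higher in retina, with a median difference of 9.66. All 4 measured cortical projection neuron genes, such as Neurod6 and Tbr1, were lower, with a median of -5.42. A transcript was called different at a limma adjusted p under 0.05 with at least a 2-fold difference, which held for 25.4% of all probes (3987 higher and 4392 lower in retina, against 2474 and 7621 without normalization). In the absence of detection calls, 747 probes for olfactory receptor genes served as a yardstick of dim signal. The 95th percentile of their means was 10.77 in retina and 10.65 in cortex, and a value below it was not shown to lie above background. Mean levels were above it for 5 of the 8 enzyme genes in retina and for 6 in cortex. At the 99th percentile, 12.7 and 13.04, only Th and Maoa lay above it in either tissue, and Hdc, Chat and Maob lay under it in both.

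Dopamine and noradrenaline are made from tyrosine. Tyrosine hydroxylase (Th) makes L-DOPA, aromatic L-amino acid decarboxylase (Ddc) turns that into dopamine, and dopamine beta-hydroxylase (Dbh) turns dopamine into noradrenaline. Ddc also completes serotonin synthesis, which begins with tryptophan hydroxylase. Histidine decarboxylase (Hdc) makes histamine and choline acetyltransferase (Chat) makes acetylcholine. Monoamine oxidases A and B (Maoa, Maob) oxidise monoamines at the outer mitochondrial membrane. In the retina, dopamine comes from a sparse class of amacrine cells and acetylcholine from starburst amacrine cells. The monoamine and histamine fibres of the cortex arise from cell bodies outside it.

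The 250 bases before the annotated start are shown for 4 of these genes: Maoa, Chat and Hdc, which differed between the tissues, and Th, which stood at nearly the same level in both. The sequences are from RefSeq on GRCm38.p6, each read 5′ to 3′ on the strand of its gene. Capitals mark every match, on either strand, to GGGCGG (the GC box), TGACGTCA (the cAMP response element), TGANTCA (the AP-1 site), CACGTG (an E-box) or TATAAA (the TATA box).
Maoa, chrX:16619448-16619697, plus strand: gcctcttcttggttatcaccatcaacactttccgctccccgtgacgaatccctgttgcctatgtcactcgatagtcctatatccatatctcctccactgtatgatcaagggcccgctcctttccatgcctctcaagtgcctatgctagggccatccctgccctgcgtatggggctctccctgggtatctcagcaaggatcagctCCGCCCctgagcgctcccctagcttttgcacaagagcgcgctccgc
Th, chr7:142899996-142900245, minus strand: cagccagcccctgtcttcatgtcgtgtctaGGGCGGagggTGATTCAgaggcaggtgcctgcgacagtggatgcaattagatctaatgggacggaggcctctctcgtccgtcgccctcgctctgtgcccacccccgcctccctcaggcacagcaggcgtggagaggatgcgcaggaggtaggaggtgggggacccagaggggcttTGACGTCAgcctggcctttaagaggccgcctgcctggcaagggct
Chat, chr14:32465910-32466159, minus strand: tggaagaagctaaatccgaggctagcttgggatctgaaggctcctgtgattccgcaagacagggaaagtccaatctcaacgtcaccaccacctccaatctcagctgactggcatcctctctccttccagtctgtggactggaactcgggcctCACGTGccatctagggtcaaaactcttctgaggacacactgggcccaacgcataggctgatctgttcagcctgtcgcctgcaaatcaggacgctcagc
Hdc, chr2:126618679-126618928, minus strand: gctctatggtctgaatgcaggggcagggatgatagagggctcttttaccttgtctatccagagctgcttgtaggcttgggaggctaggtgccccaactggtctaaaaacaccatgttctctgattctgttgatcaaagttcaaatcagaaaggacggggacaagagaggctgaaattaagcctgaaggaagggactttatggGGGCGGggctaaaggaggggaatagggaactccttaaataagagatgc

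The Th window held a cAMP response element that began 45 bases before the start, a motif found in 1.55% of 32851 windows of this length. A cAMP response element is known in the promoter of rodent Th. The same window held an AP-1 match, as did 6.75% of all windows. Maoa, Hdc and Th each held 1 GC box, a motif in 32.7% of all windows. It began 46 bases before the start in Maoa and 48 in Hdc. The Chat window held an E-box, as did 6.02% of all windows, and no other of the 5 motifs. RefSeq windows were matched for 8 of the 9 genes, 10 windows in all, because Ddc and Tph1 each had 2 start sites. Maob had no entry. TATAAA lay in 1 of the 10, the first Ddc window, against 12.4% of all windows. A match is a run of letters and was not tested as a site.

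Of the 8 measured genes, 3 were higher in retina (Chat, Hdc and Dbh), against 12.1% of all probes. Another 2 were lower (Maoa and Ddc), against 13.3% of all probes. Th, Maob and Tph1 were not called. The median difference over the 8 genes was -0.27, beside -0.01 over all probes. The 5 arrays of one tissue lay wholly above those of the other for 7 of the 8 genes, as they did for 40.5% of all probes. The exception was Th. Levels are normalized log2 intensities throughout, and differences are retina minus cortex in log2 units.

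**Figure D1:**
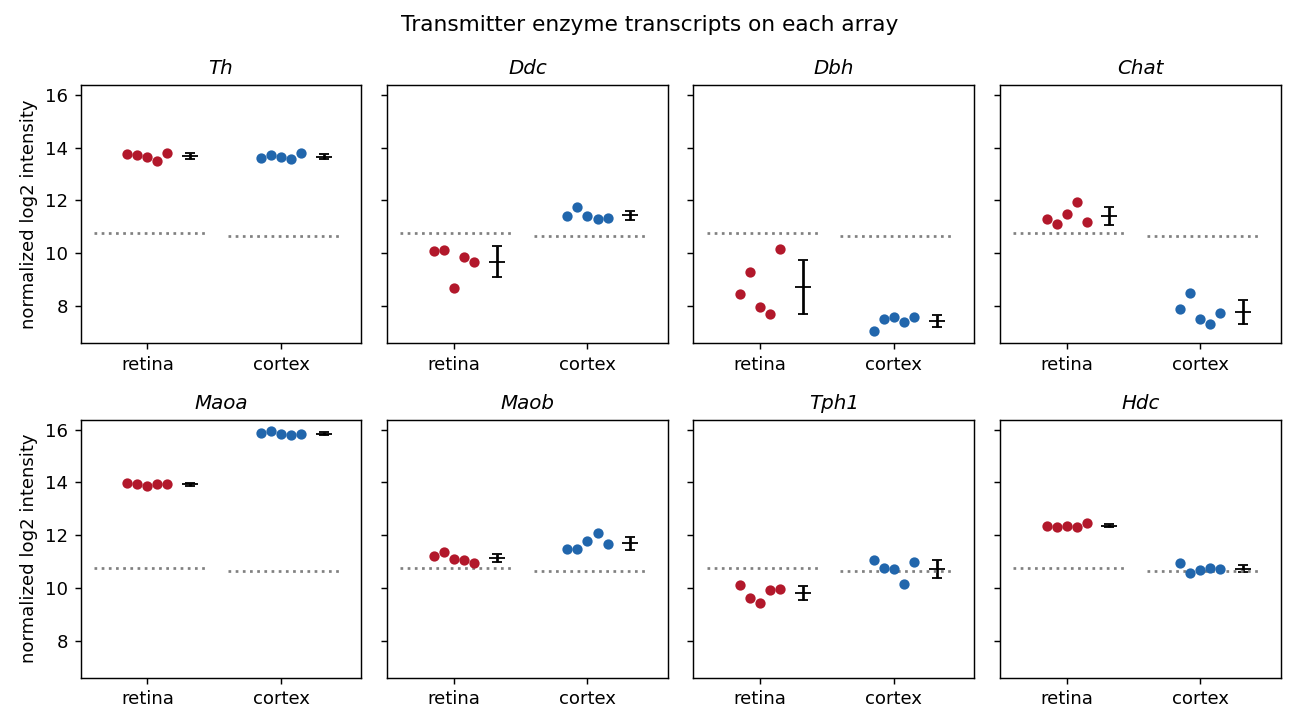
Normalized log2 intensity (vertical axis) of the 8 enzyme transcripts on each of the 5 retina and 5 cortex arrays. Points are arrays, black marks are the mean and SD, and dotted lines are the 95th percentile of olfactory receptor probes in that tissue (10.77 and 10.65). Maoa is tightly grouped at 13.92 and 15.85, Th is at 13.68 and 13.66, and the Dbh points lie below the dotted lines in both tissues.

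Th, the rate-limiting enzyme of catecholamine synthesis, was well above the yardstick in both tissues. Its level on the retina arrays was 13.74, 13.71, 13.66, 13.51 and 13.79, and on the cortex arrays 13.59, 13.72, 13.63, 13.57 and 13.78. The groups overlapped fully. The means were 13.68 ± 0.11 and 13.66 ± 0.09 (SD, n = 5), a difference of 0.02 with a 95% interval of -0.11 to 0.16 (limma with Benjamini-Hochberg adjusted p = 0.811). That interval excludes a 2-fold difference. The sign of the difference, and whether it passed the test, depended on the scaling. As deposited, Th read 10714 to 12952 intensity units in retina and 13303 to 16377 in cortex, with no overlap. Without normalization its difference was -0.36 (adjusted p = 0.000568), where the median of all probes was itself at -0.41. With scaling to a common median it was 0.18 (limma adjusted p = 0.0366), where the median of all probes was at 0.13.

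Ddc, the next enzyme of the pathway, was lower in retina. Its level was 10.09, 10.10, 8.67, 9.85 and 9.66 on the retina arrays and 11.41, 11.73, 11.40, 11.28 and 11.33 on the cortex arrays. All retina arrays lay below all cortex arrays, and retina array 3 was the lowest. The means were 9.67 ± 0.59 and 11.43 ± 0.18 (SD, n = 5), a difference of -1.76 (SE 0.251, adjusted p = 1.31e-05). The retina mean was under the yardstick. With every value under 10.77 raised to that level, the difference was -0.66 and no longer reached 2-fold.

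Dbh was dim in both tissues. It read 8.46, 9.30, 7.96, 7.69 and 10.17 on the retina arrays and 7.04 to 7.59 on the cortex arrays. The retina arrays were all higher but spread widely, with array 5 the highest. The difference was 1.30 (SE 0.423, 95% interval 0.40 to 2.20, adjusted p = 0.0173), and every array was under the yardstick. Without retina array 5 it was 0.94 and was not called, and without normalization it was 0.97 (adjusted p = 0.0611). The SD of 1.02 in retina compares with a median of 0.57 for retina probes of like brightness (with all probes ranked into 10 bins).

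Tph1, the tryptophan hydroxylase best known from the pineal gland and the gut, was not called. Its level was 10.11, 9.62, 9.41, 9.93 and 9.95 in retina, under the yardstick, and 11.04, 10.74, 10.70, 10.14 and 10.97 in cortex. The groups came close, at 10.11 and 10.14, without overlapping. The difference of -0.91 (SE 0.23, adjusted p = 0.00295) fell short of 2-fold. Without cortex array 4 it was -1.06 and was called. Without normalization it was -1.44 and was called lower, as were 23.1% of all probes, whose median was at -0.41. With every value under 10.77 raised to that level, it was -0.09 (limma adjusted p = 0.305).

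Hdc was higher in retina. It read 12.36, 12.32, 12.33, 12.30 and 12.45 on the retina arrays and 10.93, 10.55, 10.67, 10.77 and 10.73 on the cortex arrays. Both groups were narrow and far apart, although the cortex mean of 10.73 lay at the yardstick. The difference was 1.62 (SE 0.107, 95% interval 1.39 to 1.85, adjusted p = 8.85e-10), or 3.07-fold. It was 1.16 without normalization and 1.58 to 1.68 with any 1 array left out. Mast cells are a known source of Hdc outside neurons. Of 9 mast cell markers, 8 were measured. By limma 0 were called higher in retina and 1 was lower (Kit, -3.08). At an unadjusted p under 0.05 with no minimum fold, 1 was higher (Tpsb2, limma adjusted p = 0.00406). Under the yardstick in both tissues were 6, among them the carboxypeptidase gene Cpa3 and Ms4a2, a subunit of the IgE receptor. The log2 of the summed intensity of the 8 ranged from 14.73 to 15.24 over the retina arrays and from 15.18 to 15.35 over the cortex arrays. The tryptase gene Tpsb2 was bright in both, at 14.76 and 14.43. The part of mast cells in the Hdc difference was not tested.

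Chat showed the largest difference of the 8 genes as measured, but not with dim values raised to the yardstick. It read 11.30, 11.12, 11.49, 11.95 and 11.17 on the retina arrays and 7.88, 8.50, 7.49, 7.32 and 7.72 on the cortex arrays. Every retina array was above the yardstick and every cortex array was far under it. The means were 11.41 ± 0.34 and 7.78 ± 0.46 (SD, n = 5), a difference of 3.63 (SE 0.293, adjusted p = 1.21e-08), and 2.29% of probes differed by at least as much. The size of this difference rests on dim cortex signal, since it was 0.63 with values under the yardstick raised to it, short of 2-fold and smaller than for Maoa (-1.92), Hdc (1.54) and Ddc (-0.66) under that setting. It was 2.15 with 500 added to each intensity before the log. In a bulk RNA, fewer cells of a type and less RNA per cell cannot be told apart. Of 6 starburst amacrine cell markers, 5 were measured. Isl1, a LIM-homeobox gene also used by other retinal cells, was higher in retina (1.92), 4 were not called, and 2 (Slc5a7 and Megf10) were under the yardstick in both tissues. The log2 of the summed intensity of the 5 ranged from 16.63 to 16.88 over the retina arrays and from 16.00 to 16.08 over the cortex arrays. The brightest of them was Isl1 in retina (16.21, against 14.29 in cortex) and Sox2 in cortex (15.35, against 14.48 in retina). Of the markers not called, Sox2 was at -0.87 and Slc18a3 at 0.70. The part of starburst amacrine cells in the Chat difference was not tested.

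Maoa, the oxidase that prefers serotonin and noradrenaline, was lower in retina, with the smallest standard error of the set. It read 13.99, 13.92, 13.85, 13.93 and 13.93 on the retina arrays and 15.86, 15.93, 15.83, 15.80 and 15.83 on the cortex arrays. Each group spanned little, and the groups were far apart. Both SDs were 0.05, against medians of 0.10 in retina and 0.07 in cortex for probes of like brightness. The difference was -1.92 (SE 0.0455, 95% interval -2.02 to -1.83, adjusted p = 1.16e-15), so that retina was 3.8-fold lower. It was -1.90 to -1.94 with any 1 array left out and -1.77 to -2.31 over both other scalings. As deposited, the retina arrays read 12729 to 14879 intensity units and the cortex arrays 62262 to 69970.

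Maob, the oxidase known from astrocytes and serotonergic neurons, differed by less. It read 11.21, 11.35, 11.11, 11.04 and 10.93 on the retina arrays and 11.46, 11.46, 11.77, 12.08 and 11.65 on the cortex arrays. All retina arrays were below all cortex arrays, and the retina arrays were only slightly above the yardstick. The difference of -0.56 (SE 0.141, adjusted p = 0.00311) was 1.47-fold and was not called. Without normalization it was -1.02 and was called lower, as were 23.1% of all probes.

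Markers of other cell types also differed between the tissues. All 6 fibroblast and meninges genes, such as Col1a2 and Dcn, were lower in retina, and the log2 of their summed intensity was 13.52 to 13.79 there and 16.98 to 17.06 in cortex. Of 8 endothelial and mural cell genes, 3 were lower and 1 higher, with sums of 16.54 to 16.73 in retina and 16.56 to 16.70 in cortex. Of 5 measured astrocyte and Müller glia genes, 3 were higher, among them Glul, and 1 was lower, Aldh1l1. Their sums were 20.59 to 20.71 in retina and 18.21 to 18.33 in cortex. Of 8 genes of dopaminergic neurons, 2 were lower in retina, Nr4a2 (-3.03) and the dopamine transporter gene Slc6a3 (-2.06). The other 6 were not called, and the median of the 8 was -0.21. Slc6a3 was 1 of the 4 that were under the yardstick in both tissues. The sums of the 8 were 13.57 to 13.86 in retina and 15.21 to 15.37 in cortex, where Nr4a2 was the brightest (14.79). Of 6 measured pituitary genes, 3 were lower in retina (Gh, Cga and Pomc), with sums of 12.13 to 12.61 against 15.63 to 15.81. The part of these cell types in the Maoa and Ddc differences was not tested.

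Some of these genes act in pairs, and their within-array difference is not changed by a single scaling factor for a whole array. For 4 pairs, the log2 intensity as deposited of one gene minus that of the other was compared between tissues. Only the change between tissues can be read, since probes differ in brightness for the same amount of RNA. The pair Maoa and Maob encodes isoenzymes whose genes are neighbours on the X chromosome, with 0 annotated genes between them. Maoa minus Maob was 2.81, 2.65, 2.81, 2.95 and 3.01 on the retina arrays and 4.34, 4.43, 4.06, 3.69 and 4.13 on the cortex arrays. It was lower on every retina array than on any cortex array, by 1.28 on average (2.43-fold). Maoa thus differed by more than Maob between the tissues as measured, although Maob was only slightly above the yardstick in retina (11.13 against 10.77).

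Th minus Ddc, successive steps of the dopamine pathway, was 3.66, 3.76, 4.96, 3.78 and 4.13 in retina and 2.12, 1.94, 2.20, 2.22 and 2.40 in cortex. It was higher in retina by 1.88, with retina array 3, where Ddc was dimmest, the highest. Chat minus Slc18a3 sets the synthesis enzyme against the vesicular acetylcholine transporter, whose gene lies within the Chat gene. It averaged -1.75 ± 0.40 on the retina arrays and -4.66 ± 0.46 on the cortex arrays (SD, n = 5), 2.91 apart. Tph2 minus Tph1, the neuronal against the peripheral tryptophan hydroxylase, averaged 0.98 ± 0.49 on the retina arrays and -2.48 ± 0.31 on the cortex arrays (SD, n = 5), 3.46 apart. The groups did not overlap in any of the 4 pairs. Each gave an exact 2-sided permutation p of 0.00794, the smallest that 252 assignments of 5 and 5 arrays can give, and 0.00794 after Benjamini-Hochberg adjustment over the 4. The pairs were chosen after the data were seen, and each held a gene already called different (Maoa, Ddc, Chat or Tph2). That outcome was therefore largely set beforehand, and the p-values are given as description only. Ddc in retina, Chat in cortex, Tph1 in retina and Tph2 in both tissues were under the yardstick, so the sizes of these last differences rest on dim signal.

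**Figure D2:**
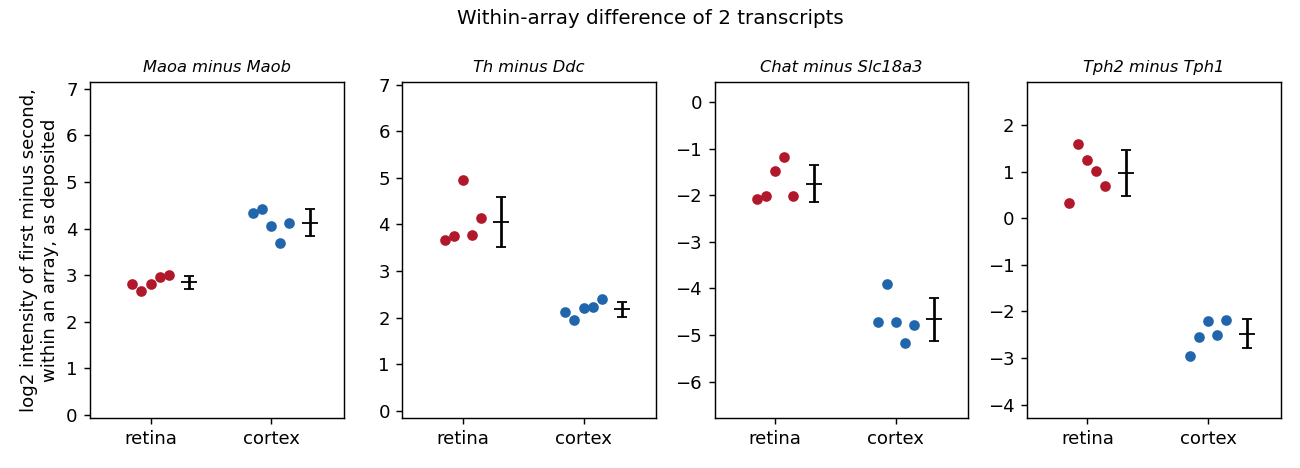
Within-array difference in log2 intensity as deposited (vertical axis, 4 panels of equal height range) for 4 pairs of transcripts on 5 retina and 5 cortex arrays. Points are arrays and black marks are the mean and SD. Maoa minus Maob is lower in retina (2.85 against 4.13), and the other 3 pairs are higher in retina, with no overlap in any panel.

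The other genes that serve these transmitters were taken in 4 lists. Of 36 genes, 27 were measured. The calls were 5 higher in retina, 4 lower and 18 neither. Their median difference was 0.06, and 11 were under the yardstick in both tissues. The calls were 12.1% and 13.3% among all probes.

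Th and the tryptophan hydroxylases need tetrahydrobiopterin, and the decarboxylases need pyridoxal phosphate. Of 8 measured cofactor genes of 10, Gchfr and Pcbd2 were higher, Gch1 was lower and the other 5 were not called. The median of the 8 was 0.55. Gchfr, a regulatory protein that inhibits GTP cyclohydrolase, averaged 11.73 ± 0.17 on the retina arrays and 9.15 ± 0.40 on the cortex arrays (SD, n = 5) and was higher by 2.58 (SE 0.215). Its cortex mean was under the yardstick, and with values under the yardstick raised to it the difference was 0.96, short of 2-fold. Gch1, the cyclohydrolase itself, which starts the synthesis, was at -1.01 (SE 0.384, adjusted p = 0.04). Its retina arrays read 9.59, 11.78, 9.75, 9.87 and 8.92 and its cortex arrays 10.67 to 11.17, so that retina array 2 stood above the whole cortex group. Gch1 was not called with 8 of the 10 arrays left out in turn, all but retina array 2 and cortex array 4, with -0.74 to -1.45 over the 10, and was at -0.03 with values under the yardstick raised to it. Pcbd2, which recycles the cofactor, was higher by 1.04 (SE 0.0631), but by 0.65 without normalization. Qdpr (0.70), Pcbd1 (0.56), Pts (0.54) and Spr (0.22), the remaining enzymes of this cofactor, were not called.

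Of 5 further synthesis enzymes, only Tph2 and Pnmt were measured. Tph2, the tryptophan hydroxylase of brain neurons, read 10.45, 11.13, 10.70, 10.91 and 10.66 in retina and 8.16, 8.28, 8.52, 7.75 and 8.79 in cortex. Its retina mean of 10.77 was at the yardstick and every cortex array was under it. It was called higher, by 2.47 (SE 0.279, adjusted p = 8.38e-07). With values under the yardstick raised to it, the difference was 0.10. Pnmt, which makes adrenaline, was dim and was not called (0.17, SE 0.702).

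Of 8 measured breakdown and anchoring genes of 10, 2 were higher and 6 were not called. Their median difference was -0.25. At limma's unadjusted p under 0.05 with no minimum fold, 2 were higher and 4 lower. Aldh1a1, a cytosolic aldehyde dehydrogenase that acts on dopamine aldehyde and on retinal, read 16.11, 16.12, 16.05, 15.95 and 16.01 in retina and 12.33, 12.48, 12.26, 12.16 and 12.35 in cortex. The groups were narrow and far apart, with a difference of 3.73 (SE 0.0614). Aldh2, the mitochondrial enzyme, was not called (-0.38, SE 0.0629). Aoc3, a membrane amine oxidase, was called higher by 1.17 (SE 0.257) from levels under the yardstick in both tissues, and was at 0.64 without normalization. Hnmt, which methylates histamine, averaged 13.33 ± 0.12 on the retina arrays and 13.45 ± 0.07 on the cortex arrays (SD, n = 5) and was not called (-0.12). Prima1, which anchors acetylcholinesterase in membranes, was at -0.59, and Bche, butyrylcholinesterase, was dim in both tissues.

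Of 9 measured transporter genes of 11, 0 were higher in retina by limma with the 2-fold minimum, and 3 were lower. At limma's unadjusted p under 0.05 with no minimum fold, 1 was higher (Slc18a3, whose adjusted p was 3.11e-06) and 5 were lower. Slc29a4, the plasma membrane monoamine transporter, read 13.37, 13.37, 13.16, 13.43 and 13.33 in retina and 15.66, 15.52, 15.53, 15.34 and 15.41 in cortex, a difference of -2.16 (SE 0.066). The serotonin transporter Slc6a4 (-2.64, SE 0.346) and the dopamine transporter Slc6a3 (-2.06, SE 0.342) were also lower, but were under the yardstick in both tissues. Slc18a2, the vesicular monoamine transporter, was at 12.13 ± 0.17 and 12.35 ± 0.13 (SD, n = 5) and was not called (-0.23). Slc18a3 was at 13.11 ± 0.15 and 12.41 ± 0.13 (SD, n = 5) and was not called (0.70, SE 0.0881). Slc5a7, the choline transporter, was at 7.65 and 7.70, under the yardstick.

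**Figure D3:**
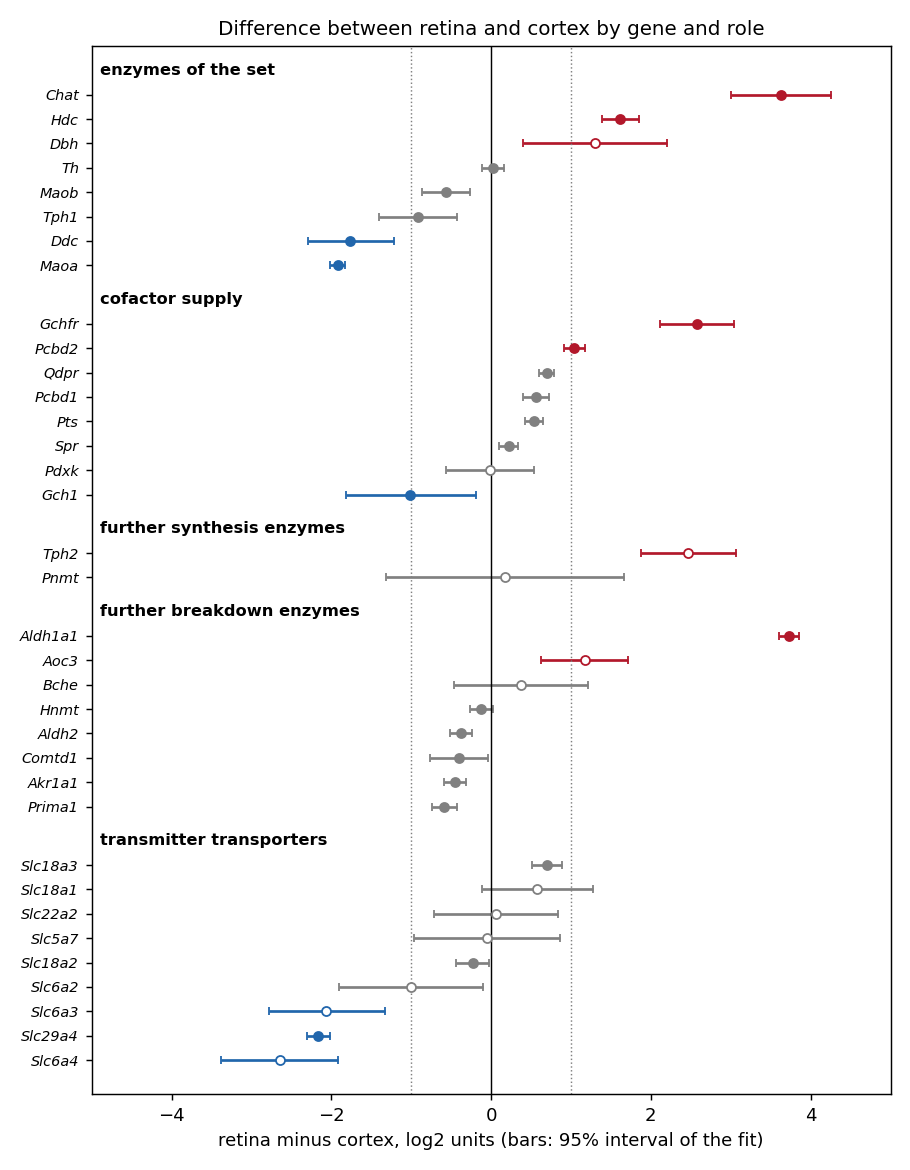
Difference between retina and cortex in log2 units (horizontal axis, with 95% intervals of the fit) for the 8 enzyme genes and 27 related genes in 4 lists. Red is called higher in retina, blue called lower, grey not called, open symbols were under the yardstick in both tissues, and dotted lines mark 2-fold. Among the enzymes, Maoa has the narrowest interval (-2.02 to -1.83) and Dbh the widest (0.40 to 2.20).

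By correlation over the 10 arrays, the transcripts most like Maoa were Rgs17 (r = 0.9995) and Pkia (r = 0.9995), and most like Hdc were Dhdh (r = 0.9979) and Oard1 (r = 0.9978). Stk35 (r = 0.9954) and Sult1c1 (r = 0.9953) were most like Chat, and Usp27x (r = 0.9875) and Gnaq (r = 0.9874) most like Ddc. For Dbh they were Csnk1g3 (r = 0.9389) and Slc25a48 (r = 0.9317). The 10 arrays form only 2 tissue clusters, so these values describe the tissue step and little else. At r of at least 0.95, 2024 genes resembled Maoa, 1995 Hdc, 1788 Chat, 182 Ddc and 0 Dbh.

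The plot of differences by processing sets these results against the scaling and the treatment of dim signal. Maoa and Hdc stayed past 2-fold at every setting drawn. Chat and Ddc fell under 2-fold only with dim values raised to the yardstick, and Dbh also without normalization and with the offset.

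**Figure D4:**
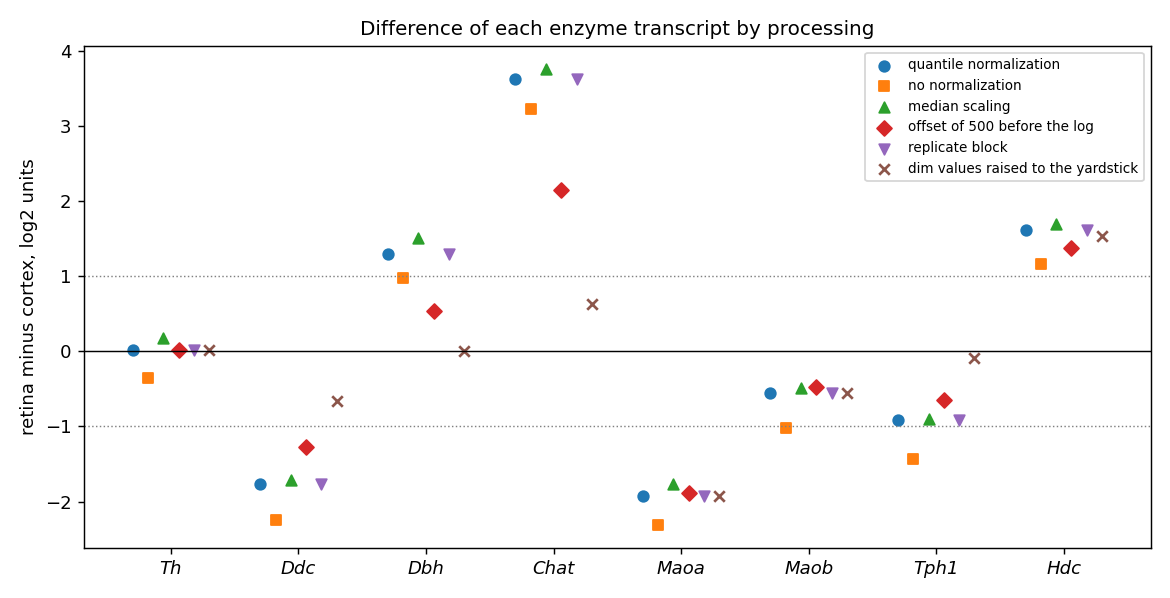
Difference between retina and cortex in log2 units (vertical axis) of the 8 enzyme transcripts under 6 processing settings, 1 symbol each. Dotted lines mark 2-fold. Maoa lies between -2.31 and -1.77 under all 6, whereas Chat runs from 3.76 with median scaling to 0.63 with dim values raised to the yardstick.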

How the data were processed

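Intensity values were deposited by the authors for 33012 probes on 10 arrays, all above 0. Per the labels' protocols, each array received cRNA labelled with digoxigenin, made from 1 µg of total RNA and detected by chemiluminescence. Scanner software, background correction and normalization are not given in the sources used here. Groups and replicate numbers were taken from the sample titles.

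Values were taken to log2. Array medians spanned 0.682, over the tolerance of 0.1, so the arrays were quantile-normalized. The tissues were compared in limma 3.58.1 (R 4.3.3), using lmFit and trended eBayes with tissue as the only term. P-values are 2-sided and were adjusted by Benjamini-Hochberg over the whole table. Of the probes, 14411 had 1 symbol in the platform annotation, 247 several, and 18354 were unlisted. In lists, the brightest probe stood for a gene. The fit was tested on simulated data without the normalization step, so that test did not check the normalization.

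The members and lists were chosen with earlier results of these data known. Named were all members, up to 4 called genes per list and direction, list genes given only with their values, and the 2 genes most like each called member. The pairs of genes, the motifs and the raising of dim values to the yardstick were chosen after the data were seen. Equal replicate numbers were not taken to pair arrays in the main fit. Alternatives were other scalings, an offset of 500, a filter on dim probes, no trend, other call rules, a replicate block and leaving out each array. The number of arrays limits the precision.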

Additional observations from a re-analysis of the deposited data

Results flagged for a closer look

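Of 34 groups of 5 arrays examined (both tissues, for the 8 enzyme genes and the called genes of the lists), 1 held a lone value by Dixon's criterion, where chance gives about 1 in 20. Ddc read 11.73 on cortex array 2 and 11.28 to 11.41 on the other 4 cortex arrays. Without that array its difference between retina and cortex was -1.69.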

How the results depend on the processing

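Maoa and Hdc kept their direction and their call under all 19 alternatives. Without normalization, Th was at -0.36, Maob at -1.02 and Tph1 at -1.44 (both then called lower), and Dbh at 0.97 (not called). The counts became 4 enzymes lower, and 3 genes of the lists higher. Among all 33012 probes, 7621 were lower and 2474 higher under that setting. With values under the yardstick raised to it, Chat was at 0.63, Ddc at -0.66, Dbh at 0.00 and Tph1 at -0.09, none called. That left 1 enzyme higher and 1 lower, and 2 genes of the lists higher and 1 lower. Of all 33012 probes, 2404 were then higher and 2576 lower. With an offset of 500, Dbh was at 0.53 and not called. By adjusted p alone, 4 enzymes were lower, with Maob (-0.56) and Tph1 (-0.91) added, and 10 genes of the lists were higher and 7 lower, beside 47.6% of all probes. At 1.5-fold, Tph1 (-0.91) was added. Leaving out 1 array gave 0.94 to 1.56 for Dbh, -1.06 to -0.82 for Tph1 and 0.00 to 0.07 for Th. It left 2 to 3 enzymes higher and 2 to 3 lower, beside 3932 to 4049 of all probes higher and 4341 to 4427 lower. With the yardstick at the 99th percentile, 2 enzymes lay above the yardstick in retina and 2 in cortex (Th and Maoa in both), against 5 and 6 at the 95th. The causes of these changes were not tested beyond what each setting does.

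The replicate block changed no call among the enzymes and moved the count over all probes from 8379 to 8398. Deviations of equally numbered arrays correlated at only -0.02 to 0.029. For numbers 1, 4 and 5 the retina array was nonetheless closest to the cortex array of its own number, so a weak pairing was not excluded. With any 1 array left out, Maoa minus Maob differed by -1.39 to -1.21, Th minus Ddc by 1.66 to 1.98, Chat minus Slc18a3 by 2.77 to 3.10 and Tph2 minus Tph1 by 3.30 to 3.62. With quantile-normalized values the 4 pairs, in that order, differed by -1.36, 1.78, 2.93 and 3.38. Groups that do not overlap keep the smallest possible permutation p when an array is dropped, so that p says nothing about stability. Signal over background is unknown, which limits every value near the yardstick.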

Other observations

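Other marker lists gave the setting of these genes. Of 6 measured genes of pigment cells, 3 were called higher in retina (Dct, Tyrp1 and Pmel), and 4 were under the yardstick in both tissues. The 4 included Pmel (10.48 and 8.34) and Tyr, which encodes tyrosinase, the melanin enzyme that also makes L-DOPA. Crx, Otx2 and Lhx4, which the pineal gland and the retina share, were all higher in retina by at least 3.36. Of 6 measured genes of sympathetic or chromaffin cells, Chga (1.21) and Chgb (1.74) were higher and Npy (-2.04) was lower, and Pnmt, Slc6a2 and Phox2a were under the yardstick in both tissues. Of 4 measured genes of forebrain cholinergic neurons, 1 was higher (Isl1) and 3 were not called. Of 3 measured erythroid genes, 2 were lower in retina.

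A second probe for Slc29a4 was lower in retina as well, with a difference of -2.49 on the log2 scale (9.20 ± 0.85 against 11.69 ± 0.15, SD, n = 5), beside -2.16 for the brighter probe. The retina mean of the second probe was under the yardstick, so the size of its difference rests on dim signal.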
